A study of Mus musculus with 13 samples.

Results

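The tricarboxylic acid cycle was followed through 9 of its enzyme genes in RNA from the gastrocnemius, a calf muscle, of 13 obese mice. The 9 genes, Cs, Idh2, Idh3a, Idh3b, Idh3g, Ogdh, Sucla2, Fh1 and Mdh2, were taken by name from the 21868 genes of the deposited table, and all 9 were among the 12303 genes that passed the minimum mean used for testing. They were named by their place in the pathway, with earlier results of these data known. Counts of members called therefore describe this list only, and other enzymes of the cycle are given further below as a comparison. All mice were C57BL/6 males (C57BL/6N in the text of the study), 7 weeks old at the start, that acclimatized for 1 week, ate a diet with 60 kcal% fat for 15 to 17 weeks and were then moved to standard chow. The 5 vehicle-treated mice received phosphate-buffered saline, and the 5 semaglutide-treated mice received semaglutide at 30 nM/kg/day intraperitoneally. The labels of both these groups also name a placebo, without saying what it was. The 3 semaglutide + ketone ester-treated mice received the same semaglutide dose and drank water that held 0.114 g/mL of ketone ester. Each treatment lasted 3 weeks. Semaglutide is an agonist of the receptor for glucagon-like peptide 1, and a ketone ester is a drink that the body turns into ketone bodies. Lean mice and mice given ketone ester alone were not analysed here. The muscle was sequenced whole, so that fibres and all other cells of the tissue contribute.

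The cycle runs in the mitochondrial matrix. It joins the acetyl group of acetyl-CoA to oxaloacetate as citrate, releases the carbon as carbon dioxide, and hands the electrons to the respiratory chain as NADH and as the reduced flavin of succinate dehydrogenase. In muscle the cycle takes in the products of fatty acid, glucose and ketone body breakdown, and citrate synthase activity is a common measure of a muscle's mitochondrial content. Succinate dehydrogenase, which is both a cycle enzyme and complex II of the chain, serves as a comparison.

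Values are normalized counts, which are the authors' read counts per gene after scaling of each mouse, and differences are on the log2(normalized count + 1) scale with their standard error from limma, a linear model fitted to all genes at once. A difference was called where its p-value, adjusted over all genes tested by the Benjamini-Hochberg method, was under 0.05. Libraries held between 15319471 and 23498162 reads, and each member was counted on at least 1940.2 normalized counts in every mouse. Acta1, Ckm and the other genes that define skeletal muscle fibres were abundant in every mouse, with a sum over 8 genes of at least 1824470.0 normalized counts, and this sum moved with the groups. It was 2672550.0 to 3305550.0 under vehicle, 1824470.0 to 3216900.0 under semaglutide and 3450990.0 to 4079070.0 with ketone ester, the last above all other mice. Of the 8 genes, 2 were called higher and 0 lower under semaglutide, and 3 higher and 1 lower with ketone ester added. Their part in the members' values was not tested. In bulk tissue, fewer cells of a type and less RNA per cell cannot be told apart.

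Transcripts of 7 of the 9 members fell in semaglutide-treated mice compared with vehicle-treated mice. These were Cs, Idh3a, Idh3b, Idh3g, Sucla2, Fh1 and Mdh2, and they cover the entry of acetyl-CoA, the NAD-dependent oxidation of isocitrate, and the last steps from succinyl-CoA and fumarate to oxaloacetate. Idh2 and Ogdh did not pass the test, though their differences were negative as well. Over all genes, 13.9% were called lower in this comparison. The median difference of the 9 members was -0.58, against -0.0029 for all 12303 genes. When semaglutide + ketone ester-treated mice were compared with semaglutide-treated mice, the 7 genes were higher, against 10.0% of all genes called higher, and the median of the 9 members was 0.64. The 2 comparisons use the same 5 semaglutide-treated mice. Between semaglutide + ketone ester-treated and vehicle-treated mice limma called 0 members, where 0.366% of all genes were called in either direction. In that comparison no member had an unadjusted p under 0.05, and edgeR and DESeq2 on the recovered reads called 0 members too.

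In all 7 called genes, the highest semaglutide-treated mouse was lower than the lowest mouse of both other groups. Groups stood apart in this way in 7.45% of all genes in the first comparison and in 9.96% in the second. Under the rule the authors describe for calling genes, which asks for p under 0.05 in an analysis of variance and for group means at least 1.5 times apart, 4 members (Idh3a, Idh3g, Sucla2 and Mdh2) were lower under semaglutide, against 7.03% of all genes. The rule held for 7 members higher with the ketone ester added, against 7.11% of all genes. Fh1, whose vehicle mean was 1.49 times its semaglutide mean, lay just under that limit in the first comparison, and Cs and Idh3b stood at 1.39 and 1.41 times.

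**Figure D1:**
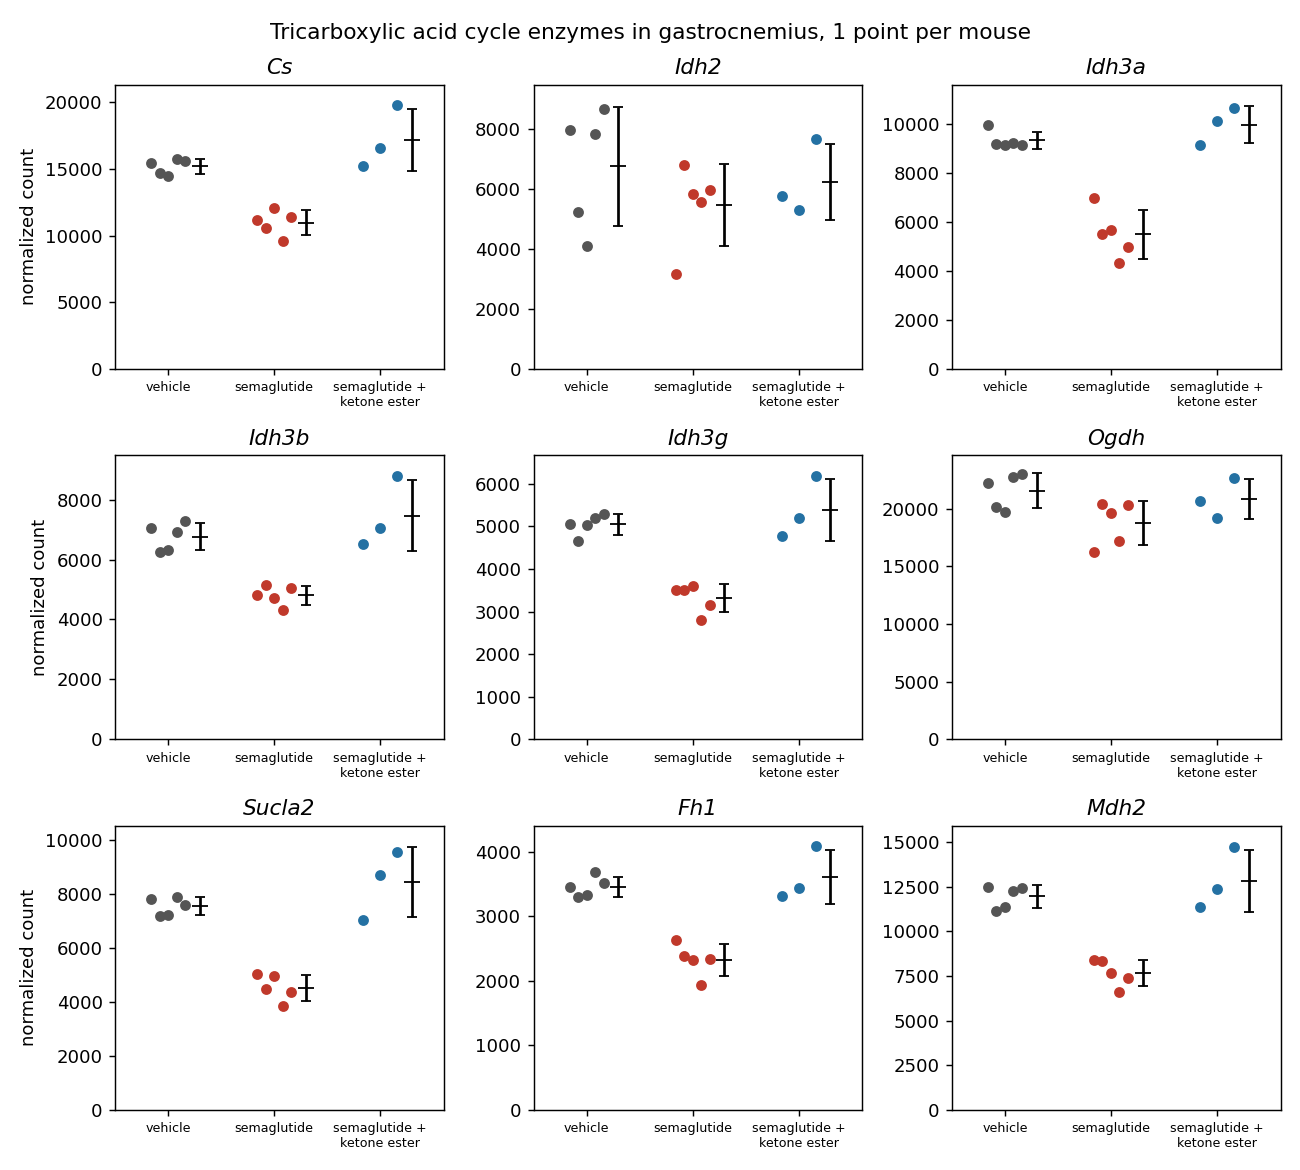
Normalized counts (vertical axes, from 0) of the 9 enzyme genes in each of the 13 mice, with 1 point per mouse in order of mouse number and a bar for the mean ± SD of each group (n = 5 vehicle, 5 semaglutide, 3 semaglutide + ketone ester). The semaglutide points lie below all others in 7 panels and overlap the other groups in the panels of Idh2 and Ogdh.

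Cs encodes citrate synthase, which condenses acetyl-CoA with oxaloacetate (ENSMUSG00000005683.8, chr10:128337734-128362479 of mouse genome GRCm38, plus strand). Its normalized counts were 15437, 14726, 14497, 15767 and 15585 in vehicle-treated mice 1 to 5. In semaglutide-treated mice 13 to 17 they were 11197, 10562, 12074, 9597 and 11409. With ketone ester added, mice 19, 21 and 22 had 15206, 16552 and 19782. The highest semaglutide value thus lay under the lowest value of either other group, and mouse 22 was the highest of all 13. The means and SDs were 15202 ± 558 for vehicle (n = 5), 10968 ± 937 for semaglutide (n = 5) and 17180.1 ± 2351 for semaglutide + ketone ester (n = 3). Under semaglutide the value fell by 0.47 ± 0.091 (SE) on the log2 scale (adjusted p = 0.00217). The difference with ketone ester added was 0.64 ± 0.10 (adjusted p = 0.00130). Csl, a gene similar to Cs, was counted at a mean of 207 under vehicle and may share reads with Cs, so that its value is uncertain.

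The NAD-dependent isocitrate dehydrogenase, a rate-controlling step of the cycle, is built of a catalytic alpha subunit (Idh3a), a beta subunit (Idh3b) and a gamma subunit (Idh3g). The genes lie on different chromosomes, Idh3a at chr9:54586334-54604661 (ENSMUSG00000032279.11, plus strand), Idh3b at chr2:130279309-130284547 (ENSMUSG00000027406.12, minus strand) and Idh3g at chrX:73778963-73786897 (ENSMUSG00000002010.17, minus strand). All of them fell under semaglutide and were higher with ketone ester added. For Idh3a, the vehicle-treated mice had 9953, 9168, 9161, 9235 and 9126. The semaglutide-treated mice had 6996, 5524, 5673, 4305 and 4989, with mouse 13 the highest and mouse 16 the lowest. Semaglutide + ketone ester-treated mice had 9147, 10115 and 10636. Idh3a thus had a narrow spread under vehicle and a wide one under semaglutide, with coefficients of variation of 3.77% and 18.1%. The vehicle mean was 1.70 times the semaglutide mean, a log2 difference of -0.78 ± 0.11 (adjusted p = 0.000253), the largest in size of the 9 members. With ketone ester added it was 1.81 times the semaglutide mean (log2 difference 0.87 ± 0.13, adjusted p = 0.000747).

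Idh3b was counted at 7053, 6236, 6325, 6930.0 and 7286 under vehicle. Under semaglutide the counts were 4822, 5141, 4725, 4327 and 5048. With ketone ester they were 6532, 7060.3 and 8802. The semaglutide-treated mice lay close together for this subunit, and mouse 22 stood above the rest. The log2 difference was -0.49 ± 0.090 for semaglutide (adjusted p = 0.00171) and 0.62 ± 0.10 for the addition of ketone ester (adjusted p = 0.00147). Counts of Idh3g were 5064, 4664, 5025, 5206 and 5282 under vehicle. They were 3503, 3506, 3591, 2803 and 3158 under semaglutide. They reached 4787, 5194 and 6183 with ketone ester. Mouse 16 was the lowest, and the semaglutide-treated mice lay below both other groups, which overlapped each other. For Idh3g the log2 differences were -0.61 ± 0.090 (adjusted p = 0.000376) and 0.70 ± 0.10 (adjusted p = 0.000808).

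Whether the subunits changed by unequal amounts was tested on ratios within a mouse, which do not depend on how a mouse was scaled. The log2 ratio of Idh3a to Idh3b was 0.47 ± 0.095 (SD, n = 5) under vehicle and 0.18 ± 0.23 (SD, n = 5) under semaglutide. The difference of -0.29 had p = 0.0476 in a two-sided exact permutation test and an adjusted p of 0.286 over the 18 tests of 6 gene pairs. Against Idh3g the difference was -0.17 (exact permutation p = 0.0952, adjusted p = 0.317). Unequal change of the subunits was therefore not shown. None of the 18 tests passed the threshold, 3 had an unadjusted p under 0.05, and the smallest p that 5 against 5 mice allow, 0.00794, comes to 0.143 when a single test of the 18 reaches it.

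Idh2 encodes the NADP-dependent isocitrate dehydrogenase of the matrix, which makes NADPH (ENSMUSG00000030541.16, chr7:80094846-80115392, minus strand). It was the member that varied most within groups. Vehicle-treated mice had 7970.1, 5219, 4107, 7845 and 8671. Semaglutide-treated mice had 3168, 6814, 5849.5, 5553 and 5957. Semaglutide + ketone ester-treated mice had 5757, 5291 and 7659.9. Vehicle mice 2 and 3 and semaglutide mouse 13 were low, and the 3 groups overlapped. The coefficient of variation was 29.3% under vehicle, where the other 8 members had between 3.67% and 7.09%. The log2 difference for semaglutide was -0.30 with a 95% interval of -0.79 to 0.19 (adjusted p = 0.369), so that a fall as large as that of Idh3g lies within the interval. With ketone ester added it was 0.22 (-0.35 to 0.78, adjusted p = 0.600). The log2 ratio of Idh2 to Idh3a was -0.52 ± 0.45 (SD, n = 5) under vehicle and -0.035 ± 0.63 (SD, n = 5) under semaglutide (exact permutation p = 0.183, adjusted p = 0.329). Of the 5 semaglutide-treated mice, 4 had a ratio above 0, between 0.044 and 0.37, while mouse 13 had -1.14 and all vehicle-treated mice were below 0.

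In the vehicle-treated mice, Idh2 followed the genes of slow and type 2A fibres, the oxidative fibres of muscle. Their sum over 10 genes, Myh7, Myh2, Mb and others, was 160400.0, 100287, 72051, 153648 and 173536 normalized counts in vehicle mice 1 to 5, and the order of the 5 mice was the same for Idh2 and for this sum. Mice 2 and 3 were the lowest 2 vehicle-treated mice in 8 of the 9 members. Mdh2 differed little between them, by comparison, with 12495, 11167, 11390.0, 12277 and 12455. In semaglutide-treated mice the slow-fibre sum was 54798, 107196, 41522, 65154 and 52389.7, and mice 15 and 17 had less of it than mouse 13 but more Idh2. The sum ranged over 91936 to 143331 with ketone ester. All 10 genes had a negative difference under semaglutide, with a median of -0.52. Of them, 2 were called lower, Mb (myoglobin, -2.15 ± 0.22, adjusted p = 3.29e-05) and Myl3 (a slow myosin light chain, -1.32 ± 0.32, adjusted p = 0.00761). The 8 genes of the fast-fibre list had 2 called lower, Pvalb at -1.36 and Tnnc2 at -0.59, and 1 called higher, Actn3 at 0.74, a call that ended without the filter on low values. The call of Tnnc2 was lost when any of 7 mice was left out, with adjusted p up to 0.0759. Among mice with ketone ester added, 1 slow-fibre gene (Mb, 1.64, adjusted p = 0.00103) and 4 fast-fibre genes were called higher. All 10 slow-fibre genes had a positive difference in that comparison, with a median of 0.26. The medians of the fast-fibre list were -0.28 under semaglutide and 0.48 with ketone ester added. The part of fibre composition in the members' values was not tested.

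**Figure D2:**
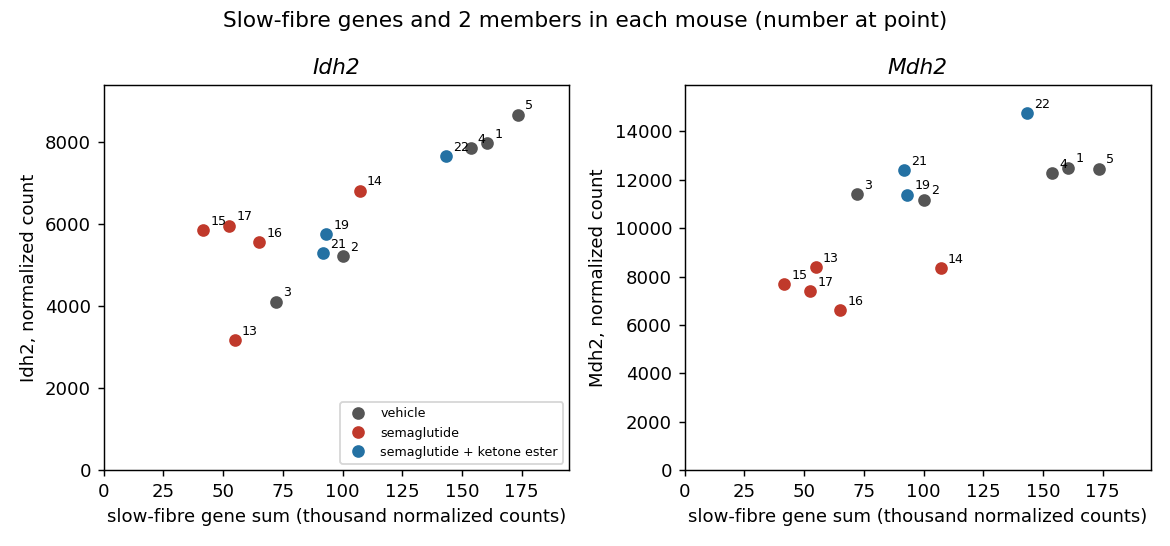
Normalized counts of Idh2 (left) and Mdh2 (right) against the summed normalized counts of 10 slow and type 2A fibre genes, with 1 numbered point per mouse and colour for the treatment group. Vehicle mice 2 and 3 sit low in Idh2 and in the sum, whereas Mdh2 separates the semaglutide-treated mice, at 8384 or less, from all others.

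Ogdh encodes the E1 subunit of the 2-oxoglutarate dehydrogenase complex (ENSMUSG00000020456.17, chr11:6291633-6356642, plus strand). Its counts were 22227, 20195, 19701, 22762 and 23031 under vehicle. Under semaglutide they were 16246, 20379.9, 19670.3, 17204 and 20350.2. With ketone ester they were 20679, 19207 and 22680.3. Semaglutide mice 13 and 16 lay under all other mice, while mice 14, 15 and 17 lay within the range of the vehicle-treated mice or just under it. The log2 difference of -0.20 ± 0.096 was the smallest in size of the members (95% interval -0.41 to 0.00063, adjusted p = 0.130), and that for added ketone ester was 0.15 ± 0.11 (adjusted p = 0.345). The other catalytic subunits of the same complex passed the test. Dlst, the E2 subunit, fell by 0.39 ± 0.10 (adjusted p = 0.0112), and Dld, the E3 subunit that is shared with pyruvate dehydrogenase, fell by 0.41 ± 0.079 (adjusted p = 0.00239). The call of Dlst was lost with every mouse scaled to the same total. Whether Ogdh changed less than its partners was not tested.

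Sucla2 encodes the ADP-forming beta subunit of succinyl-CoA synthetase, which makes ATP directly in the cycle (ENSMUSG00000022110.13, chr14:73525319-73596142, plus strand). Vehicle-treated mice had 7803, 7167, 7214, 7888 and 7590.1. Among semaglutide-treated mice the counts were 5011, 4474, 4935, 3825 and 4342. Addition of ketone ester gave 7036, 8691 and 9557. No semaglutide value reached the lowest value of the other groups, and mice 21 and 22 were above all vehicle-treated mice. The log2 difference was -0.74 ± 0.097 (adjusted p = 0.000165) for semaglutide and 0.89 ± 0.11 (adjusted p = 0.000455) for added ketone ester, where it was the largest of the members. Suclg2, the GDP-forming beta subunit that pairs with the same alpha subunit, had 874 ± 67.3 under vehicle, 736 ± 60.1 under semaglutide (SD, n = 5 each) and 886 ± 9.69 with ketone ester (SD, n = 3). Its log2 difference was -0.25 for semaglutide (adjusted p = 0.0298), a call lost when vehicle mouse 1, 4 or 5 or semaglutide mouse 16 was left out (adjusted p up to 0.0746) and under 4 other settings (adjusted p up to 0.467). The log2 ratio of Sucla2 to Suclg2 lay between 2.99 and 3.18 under vehicle and between 2.49 and 2.84 under semaglutide, without overlap (difference -0.49, exact permutation p = 0.00794, adjusted p = 0.143 over 18 tests). With ketone ester it lay between 2.97 and 3.43, a difference of 0.62 from semaglutide (exact permutation p = 0.0357, the smallest that 3 against 5 mice allow, adjusted p = 0.286).

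Fh1 encodes fumarate hydratase, which adds water to fumarate to give malate (ENSMUSG00000026526.14, chr1:175600374-175625635, minus strand). Counts under vehicle were 3455, 3294, 3338, 3689 and 3521. Semaglutide-treated mice had lower counts of 2629.6, 2385, 2322, 1940.2 and 2338. Mice given ketone ester as well had 3313, 3444 and 4087. The groups under vehicle and with ketone ester overlapped, and semaglutide mouse 13 was the highest of its group. Fh1 fell by 0.58 ± 0.087 on the log2 scale under semaglutide (adjusted p = 0.000457) and was higher by 0.64 ± 0.10 with ketone ester added (adjusted p = 0.00107).

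Mdh2 encodes the matrix malate dehydrogenase, which closes the cycle by remaking oxaloacetate (ENSMUSG00000019179.10, chr5:135778480-135790398, plus strand). Beside the vehicle values given above, semaglutide-treated mice had 8384, 8337, 7682, 6608 and 7403. Semaglutide + ketone ester-treated mice had 11371, 12391 and 14748. Mouse 16 was again the lowest and mouse 22 the highest. The log2 difference for semaglutide was -0.64 ± 0.093 (adjusted p = 0.000337), and that for added ketone ester was 0.74 ± 0.11 (adjusted p = 0.000747). Mdh1, the cytosolic malate dehydrogenase, which works with Mdh2 in the malate-aspartate shuttle, fell by 0.76 ± 0.13 under semaglutide (adjusted p = 0.00114) and was higher by 0.79 ± 0.15 with ketone ester added (adjusted p = 0.00320). The log2 ratio of Mdh2 to Mdh1 was 0.45 ± 0.16 under vehicle and 0.57 ± 0.062 under semaglutide (SD, n = 5 each, exact permutation p = 0.159, adjusted p = 0.317).

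Between semaglutide + ketone ester and vehicle, the log2 differences of the members ran from -0.079 for Idh2 to 0.17 for Cs, with a median of 0.093. The 95% intervals leave room for differences in either direction, -0.056 to 0.39 for Cs, -0.087 to 0.39 for Sucla2 and -0.64 to 0.49 for Idh2. Mouse 22 was the highest of the 3 semaglutide + ketone ester-treated mice in all 9 members. Without it, the median difference from vehicle was -0.0089, that from semaglutide was 0.55, and the 7 members were still called against semaglutide.

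**Figure D3:**
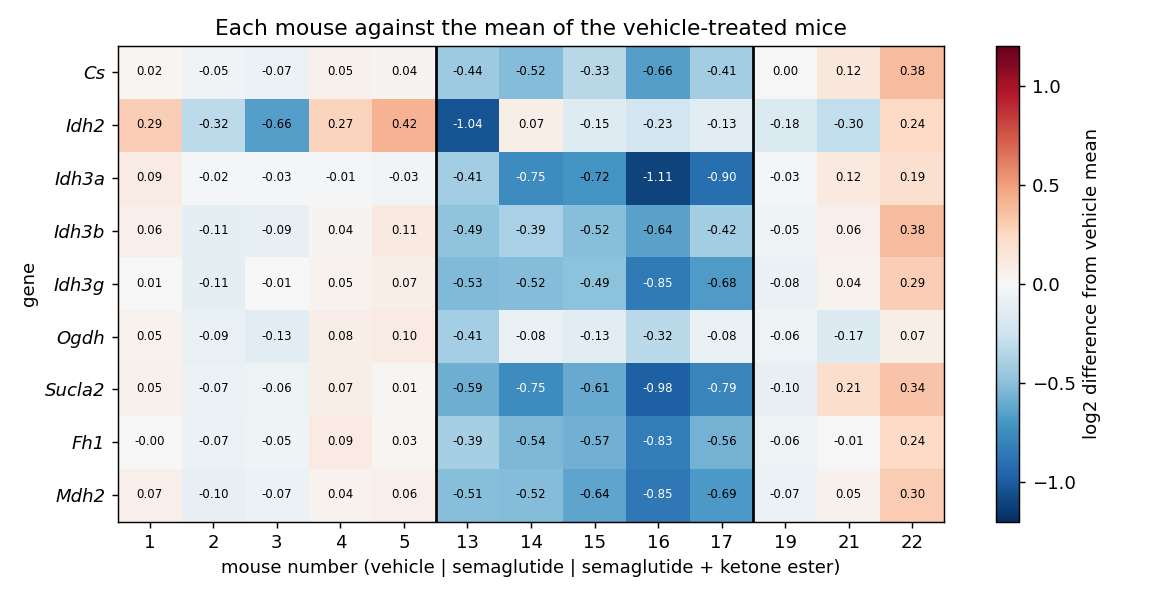
Log2 difference of each of the 9 genes (vertical axis) in each of the 13 mice (horizontal axis, by mouse number) from the mean of the 5 vehicle-treated mice, with the value in each cell and colour from blue (lower) to red (higher). The cells of semaglutide mice 13 to 17 are negative in every gene but Idh2, where mouse 14 has 0.068 and mouse 13 has -1.04.

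Averaged over the 9 members, the log2 difference from the vehicle mean was -0.54 ± 0.11 (SD, n = 5) in semaglutide-treated mice, with a range of -0.72 to -0.45. In semaglutide + ketone ester-treated mice it was -0.068, 0.016 and 0.27 in mice 19, 21 and 22, against an SD of 0.11 (n = 5) under vehicle. The lowest mouse, 16, was the lowest of its group in each of the 7 called members. It also had the most RNA of white adipocyte markers, a sum of 11063 normalized counts over 6 genes such as Adipoq, against 149.9 to 1229 in the other semaglutide-treated mice, 575 to 2674 under vehicle and 1026 to 2045 with ketone ester. Without mouse 16 the 7 members were still called lower, with a median of -0.52. Without mouse 13, whose Idh2 and Ogdh were the lowest of its group and whose Idh3a, Sucla2, Fh1 and Mdh2 were the highest, the 7 were called as well, and the median was -0.63.

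Markers of other cells moved with the groups in part. Of 5 fibroblast markers, 4 were lower under semaglutide, and their sum was 4742 to 6694 against 5031 to 12789.9 under vehicle and 7555 to 12366 with ketone ester. The sum of 5 erythroid genes, mostly globins, was 50.5 to 3148 under semaglutide, 1356 to 2291 under vehicle and 2849 to 5558 with ketone ester, and all 5 were called higher with ketone ester added. Of 4 smooth muscle genes 2 were called lower under semaglutide, and their sum was 1258 to 2030.4 against 1929.8 to 2747 under vehicle. Endothelial, macrophage and Schwann cell lists had no gene called under semaglutide, with sums of 3278 to 3715, 309 to 1107 and 907 to 2807 against 3225 to 3875, 262 to 913 and 1068 to 2609 under vehicle. After addition of ketone ester, 3 of the 5 endothelial genes were called higher, and the sum was 3572 to 4162. Of the 4 genes of the brown adipocyte list 2 could be tested and 1, Cox8b, was lower under semaglutide (-0.46). Cox8b had a mean of 2967 under vehicle, where Cidea had 31.1. Elovl3 was at 0 in every mouse and Ucp1 at 0 in all but 1 semaglutide-treated mouse. The difference of Cox8b is therefore not read as a change of brown adipocytes. The part of these cells in the members' values was not tested. The share of reads from mitochondrial DNA was 18.5% ± 1.12 for vehicle (SD, n = 5), 12.5% ± 0.835 for semaglutide (SD, n = 5) and 16.1% ± 0.802 for semaglutide + ketone ester (SD, n = 3), and its part in the members' values was not tested.

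Per kilobase of transcript, which allows genes to be compared, Mdh2 was the most abundant member in vehicle-treated mice, at 8212 ± 432 normalized counts per kilobase (SD, n = 5). Ogdh followed at 5229.8 ± 371 and Cs at 5196 ± 191, 2 neighbours whose ranges overlapped. Next came Idh3b at 4187, Idh3a at 3882, Idh2 at 3875 and Idh3g at 3793, each of which overlapped the next, and only Idh2, with the widest range of the 4, reached the values of Cs. Sucla2 at 3379 overlapped Idh3g in part. Fh1 was the lowest at 1312 ± 59.5, apart from all others. Under semaglutide the per-kilobase order was Mdh2, Ogdh, Cs, Idh2, Idh3b, Idh3g, Idh3a, Sucla2 and Fh1, with 5277 for Mdh2 and 881 for Fh1, and Idh3a stood at 2288. Of the paired genes outside the list, Mdh1 had 4154, Suclg2 259.6 and cytosolic Idh1 106 per kilobase under vehicle, so that Idh2, Mdh2 and Sucla2 were the more abundant member of each pair. Lengths are those of the longest principal coding transcript of the annotation, and which transcripts the muscle uses was not measured.

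Promoters of 8 of the 9 members were matched in RefSeq (build GRCm38.p6), each as 250 bases before to 50 bases after a start site. Letters of 4 factors known to act on oxidative genes were searched on both strands. The element of the oestrogen-related receptors, TNAAGGTCA, was found in 0 of the 8 genes and in 1.28% of all 32851 promoters, and the palindrome of nuclear respiratory factor 1 in 0 of 8 and in 1.27%. The ETS core CCGGAAG was found in Idh3b and Idh3g and in 8.86% of all promoters. The YY1 letters ATGGCGGC were found in Ogdh and Sucla2 and in 2.24%. Counted per gene, as for the members, the shares of all 27025 genes were 1.43% for the oestrogen-related receptors and 1.41% for nuclear respiratory factor 1. They were 9.93% for ETS and 2.605% for YY1. The stretches with a match are printed 5′ to 3′ on the gene's strand with the match in capitals, to show which letters the genes hold. Idh3b and Idh3g, both called, hold the ETS core, while the called genes Cs, Sucla2, Fh1 and Mdh2 do not. Ogdh, not called, holds the same YY1 letters as Sucla2, which was called.
Idh3b (chr2:130284439-130284467, minus strand): gaccgcgctcgCTTCCGGcgtcacttccc
Idh3g (chrX:73786984-73787012, minus strand): tgctctaggcaCCGGAAGggggcgtaaga
Ogdh (chr11:6292572-6292601, plus strand): aagatcagaaaATGGCGGCgttaagcatca
Sucla2 (chr14:73552797-73552826, plus strand): cggactcagaaATGGCGGCgtccatgttct
In Idh3b the match is on the opposite strand, begins 5 bases before the RefSeq start site and lies in an untranslated exon of the annotation, and in Idh3g it begins 104 bases before the start site. The match in Sucla2 overlaps the annotated start codon, and that in Ogdh begins 25 bases after 1 RefSeq start site and 4 bases after another, inside the gene. No match of 1 motif overlapped that of another. A match is a description of letters and says nothing about binding.

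The other matrix enzymes of the cycle and partners of its complexes were lower in 5 of 6 genes under semaglutide and higher in 6 of 6 with ketone ester added, with medians of -0.36 and 0.44. Not all of the 6 calls with ketone ester added were firm. That of Suclg2 (log2 difference 0.27) was lost in 9 of 13 fits with 1 mouse left out and under 6 of 11 other settings. Suclg1, the alpha subunit of succinyl-CoA synthetase, fell by 0.37 ± 0.090 (adjusted p = 0.00806). All 4 genes of succinate dehydrogenase were called, with medians of -0.55 and 0.59. Counterparts of the cycle enzymes in the cytosol or other places had 2 of 8 genes lower under semaglutide (Mdh1 and Csl) and 1 higher, with a median of 0.044, and with ketone ester added 2 were higher and 1 lower. Idh1, the cytosolic partner of Idh2, had a difference of 0.23 ± 0.19 (adjusted p = 0.404). The gene called higher was Dhtkd1, a relative of Ogdh in lysine breakdown (0.82 ± 0.25, adjusted p = 0.0270), and leaving out vehicle mouse 1, 2 or 5 or semaglutide mouse 14, 15 or 17 ended the call, with adjusted p up to 0.0737.

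**Figure D4:**
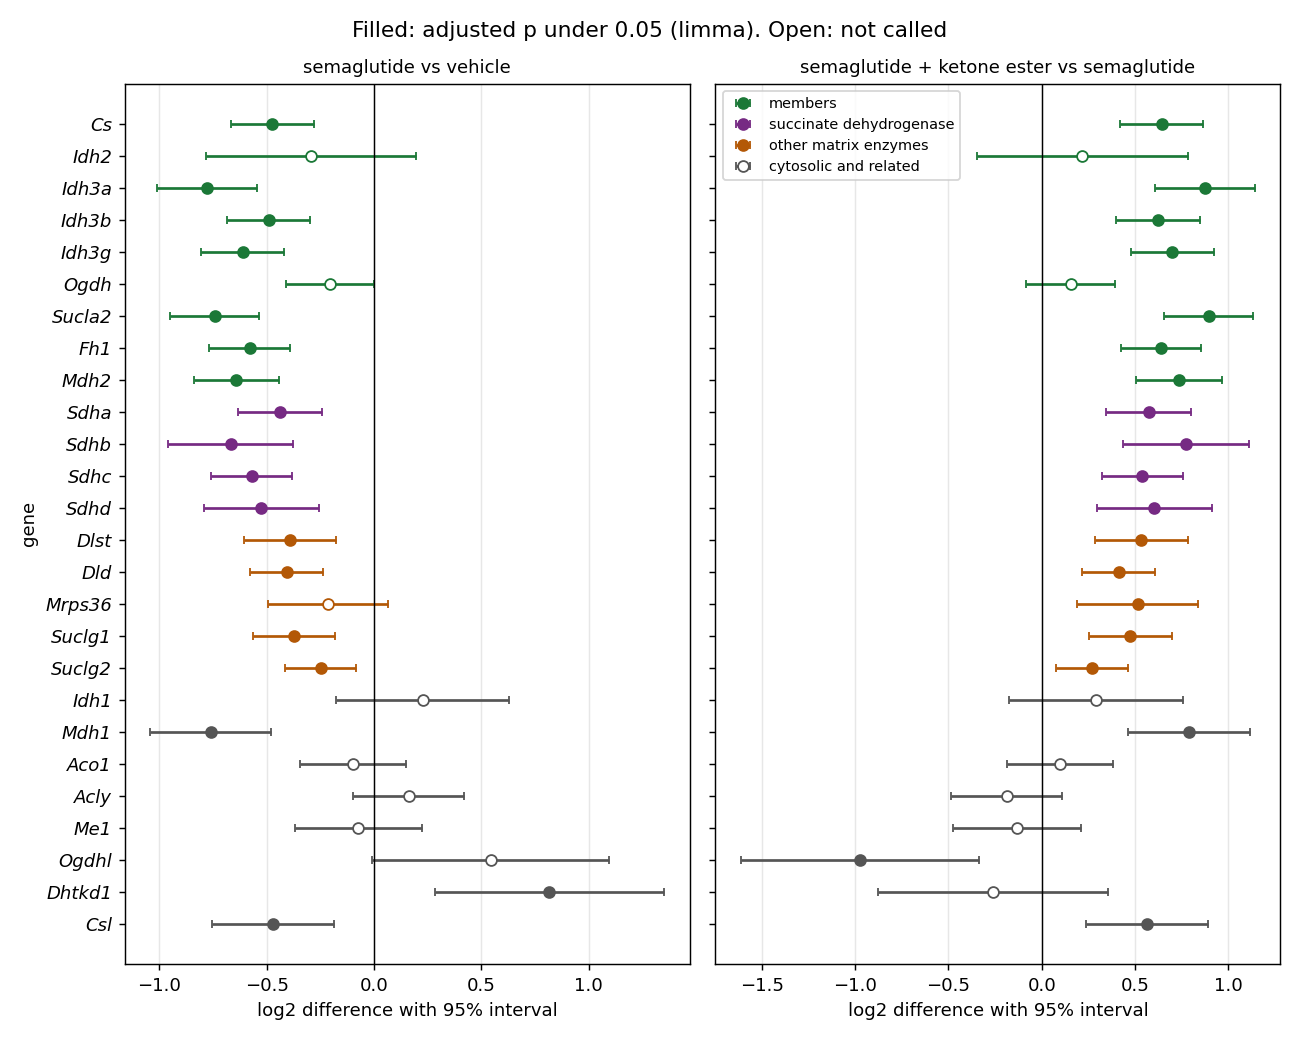
Log2 difference with its 95% interval (horizontal axes) for cycle enzymes and their counterparts (vertical axis), for semaglutide against vehicle (left) and semaglutide + ketone ester against semaglutide (right), with filled points for genes called by limma and open points for the others. Points of the members, succinate dehydrogenase and the other matrix enzymes lie left of 0 in the left panel and right of 0 in the right panel, while the counterparts lie on both sides.

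A list of inner membrane carriers held those of cycle intermediates and those of pyruvate, aspartate and glutamate. Of its 7 genes tested, 4 were lower under semaglutide and 4 higher with ketone ester added, with medians of -0.59 and 0.60. The 4 were Slc25a11, Slc25a12, Mpc1 and Mpc2 in both comparisons. The other 3 were not called, and 2 of the 7 had a positive difference under semaglutide. The call of Mpc1 with ketone ester added was lost in 2 of 13 fits with 1 mouse left out. It was also lost under 3 of 11 other settings (adjusted p up to 0.130). That of Slc25a11 with ketone ester added was lost in 1 of the 13 fits (adjusted p = 0.0619). Slc25a12, the aspartate-glutamate carrier of muscle, fell by 0.70 ± 0.11 (adjusted p = 0.000607). Mpc2, part of the pyruvate carrier, fell by 0.65 ± 0.096 (adjusted p = 0.000385).

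Factors known to drive oxidative genes did not move as a block. Of 12 genes, 3 were lower and 3 higher under semaglutide, and with ketone ester added 1 was higher and 4 were lower. Without vehicle mouse 1, 4 or 5 or semaglutide mouse 15, 1 gene in place of 3 was lower under semaglutide. Esrra, the oestrogen-related receptor alpha, fell by 0.78 ± 0.16 (adjusted p = 0.00310), while Nrf1, nuclear respiratory factor 1, rose by 0.65 ± 0.14 (adjusted p = 0.00395). Compared with semaglutide alone, ketone ester-treated mice had higher Esrra, by 0.72 (adjusted p = 0.0146), and leaving out mouse 22 or vehicle mice as a group ended the call (adjusted p = 0.0839 without mouse 22). Nrf1 was lower (log2 difference -0.70, adjusted p = 0.00836), a call that ended without mouse 21 or mouse 22 (adjusted p up to 0.0556), when 1 and 2 genes in place of 4 were lower. Ppara was lower under semaglutide at -1.03 ± 0.31 (adjusted p = 0.0239), and leaving out vehicle mouse 1, 4 or 5 or semaglutide mouse 15 ended that call (adjusted p up to 0.0647). Esrrg, the oestrogen-related receptor gamma, stood at -0.77 ± 0.27 (adjusted p = 0.0462), a call lost in 8 of 13 fits with 1 mouse left out and under 7 of 11 other settings (adjusted p up to 0.116). In semaglutide + ketone ester against vehicle none of the 12 was called by limma, with differences from -1.25 to 0.54. Not being called does not mean equal levels. Counts of Ppargc1a were 710 to 1133 with ketone ester and 1501 to 3108 under vehicle, without overlap. The first group lay wholly below the second in 5.88% of all genes.

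The genes whose values over the 13 mice were most like the members' mean standardized value were Nipsnap2, Uqcrfs1, Cox4i1, Atp5j, Ndufa10, Ndufv1, mt-Cytb, Cox5b, Vegfb and Gm11273, with Pearson correlations from 0.977 to 0.989 over the 13 mice. The mice fall into treatment groups, which can raise such a correlation by itself. With each group's mean removed, the correlations were between 0.866 and 0.959. Uqcrfs1 and mt-Cytb are subunits of complex III, Cox4i1 and Cox5b of complex IV, Ndufa10 and Ndufv1 of complex I, and Atp5j of ATP synthase. Vegfb is a growth factor made by muscle. Within the list, each member's correlation with the mean of the other 8 was 0.899 or more for the 7 called genes, 0.747 for Ogdh and 0.440 for Idh2. With group means removed it was 0.555 for Idh3a, 0.513 for Ogdh and 0.309 for Idh2.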

How the data were processed

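Total RNA of gastrocnemius from 13 mice was made into stranded mRNA libraries. Per the labels, the authors' processing used DRAGEN and DESeq2 and the mm10 build, without versions, and the deposited table holds normalized counts (signal) per gene and mouse, whose counting program and annotation are not given in the sources used here. All columns were used. Every value was a whole multiple of 1 step per mouse (tolerance 0.01), so whole reads were recovered for 100% of values. All mice carry 1 batch date, and nothing beyond separate mouse numbers describes the replicates. No 2 libraries of the same group agreed within sampling noise, and libraries of different groups were not compared. Semaglutide mouse 13 lay furthest from its group over all genes. Its pairs had a chi-square per degree of freedom of 90.4 to 153, against 13.0 to 42.2 among the other semaglutide-treated mice.

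Differences were tested with limma 3.58.1 (R 4.3.3) on log2(normalized count + 1), with a variance trend, for genes with a mean of at least 10, all 3 groups in the fit, and Benjamini-Hochberg adjustment over all 12303 genes. A pseudocount understates changes of low genes. edgeR 4.0.16 and DESeq2 1.42.0 on recovered reads were alternatives. The fit was tested on simulated data. Ratios were tested by two-sided exact permutation (scipy 1.17.1).

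Members and lists were chosen with earlier results of these data known. Named were all members and, from other lists, at most 4 of the called genes with the largest difference, partners in ratios, and the 10 genes most like the members. Mmut and Ppargc1a were named in addition. The values of 1 gene are not reported here. Positions and transcript lengths are from GENCODE (GRCm38).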

Additional observations from a re-analysis of the deposited data

Results flagged for a closer look

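Values far from the rest of their group of 5 mice were looked for in 70 groups of values with Dixon's test, which marks about 1 group in 20 by chance, and 6 stood out. Idh3a in vehicle mouse 1 was 9953 normalized counts, against 9126 to 9235 in the other vehicle-treated mice. In semaglutide mouse 13 the log2 ratio of Idh2 to Idh3a was -1.14, against 0.044 to 0.37 in the other semaglutide-treated mice, and the log2 ratio of Idh3a to Idh3g was 0.998, against 0.62 to 0.66. The sum of white adipocyte markers was 11063 normalized counts in semaglutide mouse 16, against 149.9 to 1229 in the others of its group, and 2674 in vehicle mouse 5, against 575 to 961. The sum of Schwann cell markers was 2609 in vehicle mouse 5, against 1068 to 1358. Groups of 3 mice were not examined in this way.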

How the results depend on the processing

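The 7 members called in each of the first 2 comparisons, by name, were called under every alternative fit (pseudocount 10, no filter, equal totals with or without mitochondrial-genome genes, quantile normalization, TMM, sample weights, 2-group fits, edgeR, DESeq2, each mouse left out, and, chosen after seeing the data, limma without a variance trend), and Idh2 and Ogdh under none. With the analysis of variance criterion, 4 members were lower under semaglutide. Leaving out 1 mouse moved the median over -0.63 to -0.52 for semaglutide against vehicle, 0.55 to 0.73 for ketone ester added, and -0.0089 to 0.17 for semaglutide + ketone ester against vehicle. Rescaling to equal totals moved the members' medians to -0.41 and 0.41, and the median of all genes to 0.17 and -0.24. Rescaling multiplies all genes of a mouse by the same factor. The distance of the members from the median of all genes, -0.58 and 0.64, was therefore bound to stay and is no check of the scaling. With equal totals, genes called higher made up 77.3% and 14.6% of calls, against 47.3% and 48.5% as deposited. Equal totals without the mitochondrial genome gave a median of 0.47 for ketone ester added, with 59.4% and 20.6% of calls higher.

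Signs turned in differences that were not called. With ketone ester added, equal totals gave -0.021 for Idh2, -0.082 for Ogdh and -0.15 for Pcca, and equal totals without the mitochondrial genome -0.021 for Ogdh and -0.086 for Pcca. Against vehicle they gave -0.0047 for Fh1 with equal totals and, without the mitochondrial genome, -0.047 for Fh1, -0.012 for Idh3a, -0.019 for Idh3g and -0.010 for Mdh2. With 1 mouse left out, differences against vehicle ranged over -0.24 to 0.030 for Idh2, -0.11 to 0.0078 for Ogdh, -0.016 to 0.17 for Idh3g, -0.033 to 0.12 for Fh1 and -0.0089 to 0.18 for Mdh2, and with ketone ester added over -0.52 to 0.0033 for Dhtkd1 and -0.046 to 0.75 for Ppara. The cause was not tested. Over all genes, 1540 were called higher and 1715 lower under semaglutide, against 3351 and 985 with equal totals and 2462 and 2524 with sample weights. For ketone ester added, 1234 and 1312 were called, against 637 and 3715 with equal totals, 757 and 2918 without the mitochondrial genome, 2100 and 2336 with sample weights and 591 and 617 in the 2-group fit. Between semaglutide + ketone ester and vehicle, 12 and 33 were called, against 120 and 198 with sample weights, 106 and 162 in the 2-group fit and 68 and 104 by DESeq2, while quantile normalization called 21 higher, and 51 were lower with equal totals, 99 without the mitochondrial genome and 20 without a variance trend. No ratio passed the threshold with pseudocount 10 or any mouse left out. Leaving a mouse out raises the smallest p that the tests of its group allow, so this was a weak check. No paired analysis was possible because the mouse numbers of the groups do not overlap.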

Other observations

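Enzymes that feed carbon into the cycle or draw it off were lower under semaglutide in 5 of 14 genes and higher in 0, and with ketone ester added 3 were higher, with medians of -0.29 and 0.28 (limma). Those that fell include genes of the propionyl-CoA route, which enters the cycle at succinyl-CoA. The route did not fall in all its genes. Mmut had 1261 ± 56.2 under vehicle and 1212 ± 106 under semaglutide (SD, n = 5 each), with overlapping ranges. Pccb, a subunit of propionyl-CoA carboxylase, fell by 0.49 ± 0.076 (adjusted p = 0.000602), Mcee, the epimerase of the next step, by 0.42 ± 0.096 (adjusted p = 0.00638), and Pcca, the partner subunit of Pccb, by 0.34 ± 0.096 (adjusted p = 0.0173, a call lost with equal totals). Against semaglutide alone, addition of ketone ester left Pccb higher by 0.54 (adjusted p = 0.00131), while Pcca stood at 0.090 (adjusted p = 0.602). Whether the subunits differed in their change was not tested.

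A list of genes often read as mitochondrial content, made of outer membrane channels, import genes, the matrix chaperone Hspd1 and the mitochondrial DNA factor Tfam, was mixed. Of 10 genes, 3 (Vdac1, Vdac3 and Tfam) were lower and 1 higher under semaglutide. The median was -0.047, against -0.58 for the 9 cycle enzymes. The call of Tfam was lost in 3 of 13 fits with 1 mouse left out and under 2 of 11 other settings. That of Vdac3 was lost under 1 setting. Summed over the 10 genes, the counts did move with the groups. The sum was 35263 to 37139 under vehicle, 24312 to 30250 under semaglutide and 34857 to 36791 with ketone ester. Vdac1 made up most of it, with a mean of 20950 under vehicle against 36102 for the sum. The part of mitochondrial content in the members' values was not tested. Vdac1, the main channel of the outer membrane, fell by 0.68 ± 0.084 (adjusted p = 0.000105) and Tomm40, the import pore, rose by 0.36 ± 0.091 (adjusted p = 0.0106). With the ketone ester added, Vdac1 was higher by 0.67 (adjusted p = 0.000747) and Tomm40 lower, at a log2 difference of -0.49 (adjusted p = 0.00614).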
